A study of Mus musculus with 10 samples.

Results

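The genes of iron uptake, storage and export described here were chosen by name. They are Tfrc and Trf (transferrin receptor and transferrin), Fth1 and Ftl1 (the ferritin chains), Ncoa4 (the receptor that carries ferritin to lysosomes), Slc40a1 and Slc11a2 (the exporter ferroportin and the importer DMT1), Aco1 and Ireb2 (the iron regulatory proteins) and Hmox1 (heme oxygenase). All 10 were among the 13299 genes of the deposited kidney table, and all 10 passed the filter on low values that left 13236 genes for testing. Messenger RNA was counted by 3′ end sequencing of whole kidneys from 5 Rragc S74N/+ and 5 Rragc +/+ mice, all aged 1.5 years. Rragc encodes RagC, a small GTPase that helps recruit the growth kinase complex mTORC1 to the lysosome when nutrients are present, and S74N is an activating change. The mutant mice carried it on one allele as a germline knock-in made by genome editing, so it was present in every cell type, and the controls were wild type. The methods give a C57BL/6 background, and the labels name no treatment.

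Iron enters most cells when transferrin bound to its receptor is taken into endosomes, from which DMT1 passes the metal to the cytosol. Iron that is not used is stored in ferritin shells built from heavy and light chains, is released when NCOA4 delivers ferritin to lysosomes, and leaves through ferroportin. When iron is scarce, the iron regulatory proteins IRP1 (from Aco1) and IRP2 (from Ireb2) bind iron-responsive elements, short RNA hairpins. Binding in the 5′ UTR blocks translation of ferritin and ferroportin mRNA, and binding in the 3′ UTR stabilises transferrin receptor mRNA. Kidney tubules take up much filtered transferrin and other iron-binding proteins, which makes the tissue a site of iron recycling.

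The hairpins are printed because they tie the receptor, both ferritin chains and the exporter to the same regulators. A scan covered whole annotated protein-coding transcripts, coding sequence included (GENCODE M21, mouse build GRCm38). It asked for a bulged C, an upper stem of 5 base pairs and at least 3 of 5 lower-stem pairs. The loop had to be CAGTG followed by A, C or T. A site was found in 4 of the 10 genes, against 68 of 21877 coding genes scanned (0.311%). Sites in the 10 genes also had to lie unbroken within a single exon. That check was not made for the 68, so the counts are not fully alike. Tfrc held 4 sites in its 3′ UTR on the + strand, at chr16:32631220-32631246, chr16:32631599-32631625, chr16:32631664-32631690 and chr16:32631711-32631737. Fth1 held 1 in its 5′ UTR on the + strand at chr19:9982733-9982759. Ftl1 held 1 in its 5′ UTR on the − strand at chr7:45459780-45459806, and Slc40a1 held 1 in its 5′ UTR on the − strand at chr1:45925466-45925492. Capitals mark the loop, and each line reads 5′ to 3′ along the mRNA, with T for U.
Tfrc 3′ UTR, site at 32631220: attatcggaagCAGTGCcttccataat
Tfrc 3′ UTR, site at 32631599: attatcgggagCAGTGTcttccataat
Tfrc 3′ UTR, site at 32631664: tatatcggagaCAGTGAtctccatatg
Tfrc 3′ UTR, site at 32631711: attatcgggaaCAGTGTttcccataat
Fth1 5′ UTR: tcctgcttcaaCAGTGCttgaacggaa
Ftl1 5′ UTR: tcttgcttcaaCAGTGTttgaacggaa
Slc40a1 5′ UTR: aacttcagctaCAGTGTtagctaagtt
The scan matched letters in this annotation and is no measure of binding. A gene without a match, Slc11a2 among them, may still hold a hairpin that departs from this strict pattern. Since the reads count mRNA, an effect of these hairpins on translation would not appear in the values below.

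Libraries held 4488493 to 5797251 reads. All 12 proximal tubule markers listed were present, with a summed normalized count (reads divided by the size factor of the library) of 35095 to 46931 over the 10 kidneys. Rragc itself averaged 146 ± 42.7 (SD, n = 5) in +/+ and 124 ± 26.4 (n = 5) in S74N/+ kidneys, but 3′ end reads do not cover the edited codon and so do not check the genotype labels. S74N/+ replicate 1 stood apart. It gave a summed count of 7259 over 11 adipocyte markers, a list chosen after the data were seen, against 135 to 2264 in the other 9 libraries, and 9 of these genes were highest in it. The 2264 was that of +/+ replicate 3, in which Plin1 and Lep were highest (129 and 23.0). Values without +/+ replicate 3 enter only the ranges with each library left out. In S74N/+ replicate 1 the sum over 6 red blood cell markers was 2795, against 11022 to 28565 in the other libraries. Values of the 10 genes that S74N/+ replicate 1 moved most are given with and without it. The same was done for Lcn2 and Slc3a2 among the other genes. In bulk tissue, fewer cells of a type and less RNA per cell cannot be told apart.

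None of the 10 genes passed an adjusted p of 0.05 between genotypes in limma, while 6.03% of all tested genes did (3.45% higher and 2.58% lower in S74N/+). At an unadjusted p under 0.05, limma counted 6 of the 10 genes, against 25.4% of all genes. edgeR and DESeq2 on reads recovered from the table also called 0 after adjustment, where 6.30% and 10.2% of all genes were called, and counted 6 and 4 of the 10 before it, against 25.0% and 25.1%. The 6 genes in limma were Tfrc, Slc40a1 and Ireb2, with higher means in S74N/+, and Fth1, Ftl1 and Aco1, with lower means. The median log2 fold change was −0.01 over the 10 genes and −0.01 over all tested genes. For every one of the 10 genes the ranges of the groups overlapped, whereas they did not overlap for 8.16% of all genes. Without S74N/+ replicate 1, limma called 1 of the 10, Ftl1, beside 6.80% of all genes, and counted 7 of the 10 at an unadjusted p under 0.05, beside 22.8%. On those 9 libraries edgeR also called 1, Ftl1, beside 6.75% of all genes, and DESeq2 called 1, Fth1, beside 8.58%.

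**Figure D1:**
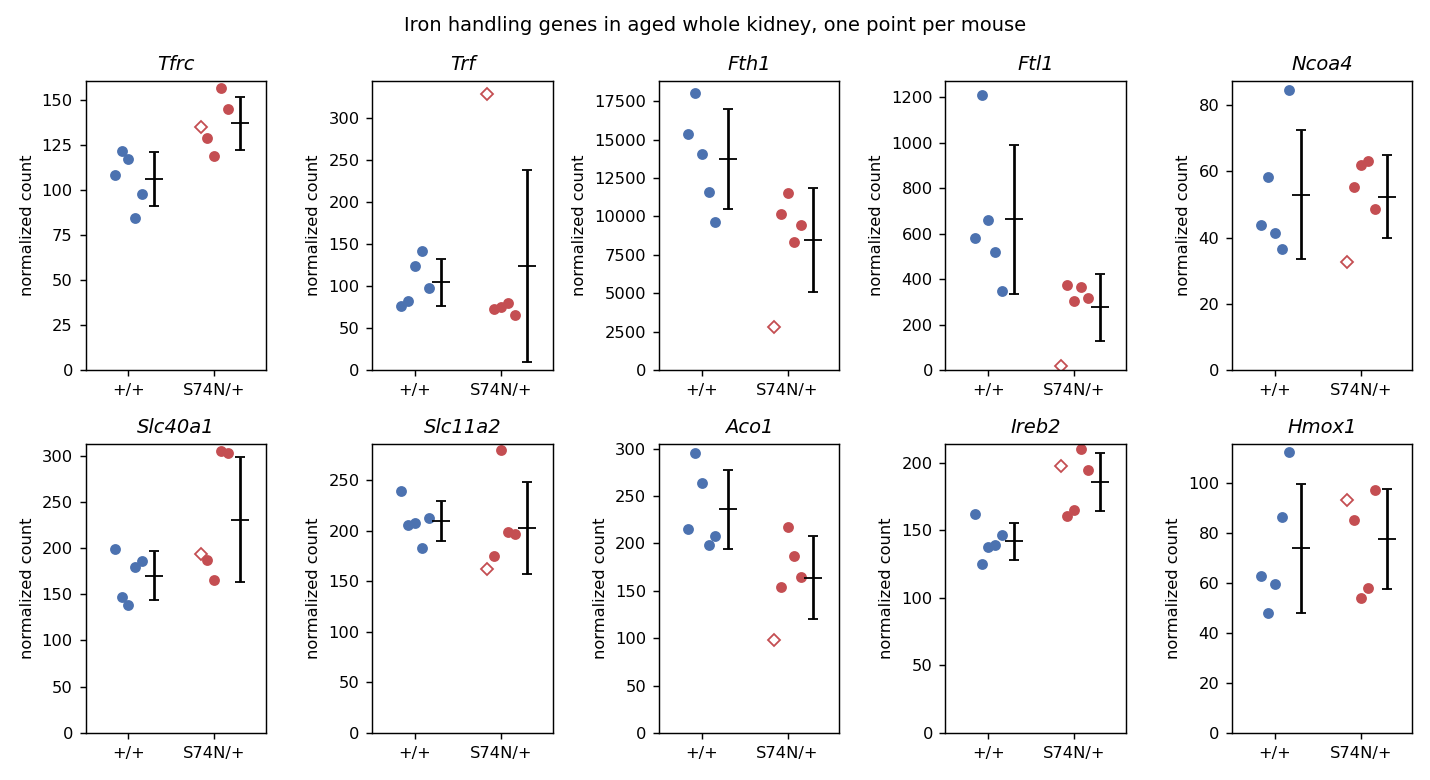
Normalized counts (y axes, from 0) of the 10 iron genes in each kidney, with +/+ in blue and S74N/+ in red. Each point is 1 mouse, the open diamond is S74N/+ replicate 1, and the bar beside each group is its mean ± SD (n = 5). The diamond lies below the other 9 kidneys for Fth1, Ftl1, Ncoa4, Slc11a2 and Aco1 and above them for Trf.

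Tfrc, the receptor that brings transferrin-bound iron into cells (chr16:32608920-32632794 on GRCm38), had normalized counts of 109, 122, 117, 84.7 and 97.5 in the +/+ kidneys, replicates 1 to 5 in order. The S74N/+ kidneys had 135, 129, 119, 157 and 145. The ranges met only through S74N/+ replicate 3, whose 119 lay below the 122 of +/+ replicate 2. In limma the log2 fold change was 0.37 ± 0.14 (SE), or 1.30-fold, with a 95% interval of 0.07 to 0.68 and an adjusted p of 0.122. The exact permutation test gave p = 0.0159, two-sided, which was 0.126 after adjustment over all genes. A p under 0.05 in that test was reached by 23.5% of all genes. Within the title numbers under 200 (3 kidneys a group) the difference in Tfrc was 0.14 on the log2 scale, and within those over 200 (2 a group) it was 0.72. What the title numbers stand for is not given in the sources used here.

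Trf encodes transferrin, the iron carrier of plasma, which is made mainly in liver. Its counts were 76.1, 82.2, 124, 142 and 97.5 in +/+ kidneys and 328, 72.7, 74.98, 79.4 and 66.1 in S74N/+ kidneys. One library, S74N/+ replicate 1, exceeded all others, and 3 of the other 4 S74N/+ values were below every +/+ value. Over all kidneys the log2 fold change was −0.04 ± 0.35 (95% interval −0.78 to 0.71, limma adjusted p = 0.962), and without replicate 1 it was −0.47 ± 0.19 (−0.85 to −0.08, adjusted p = 0.138). In edgeR on all 10 libraries the sign turned, at 0.27. The high Trf count fell in the library with the highest adipocyte sum. Hepatocyte markers, of which 5 of 8 were in the table, summed to 518 in that library, within the range of the other 9 (255 to 768). The part of adipose tissue in the Trf value was not tested. In GRCm38 transcripts, 37.6% of the 50-base windows at the 3′ end of Trf also occurred in other genes, 31 in number, so its count is uncertain.

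Slc11a2 (DMT1), which moves ferrous iron out of endosomes and across apical membranes, showed the narrowest interval among the genes near 0. Its counts were 239, 206, 207, 183.4 and 213 in +/+ and 162, 175, 280, 199 and 197 in S74N/+ kidneys. The S74N/+ range contained the +/+ range, and the log2 fold change was −0.07 ± 0.15 (95% interval −0.38 to 0.24, limma adjusted p = 0.808). Reads were counted per gene, so transcripts of Slc11a2 that end at different sites were not separated.

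Over all 10 kidneys the ferritin chains had the lowest fold changes of the 10 genes, while without S74N/+ replicate 1 Trf (−0.47) lay below Fth1 (−0.45). Fth1, the heavy chain that oxidises iron as it enters the shell (chr19:9980598-9985098), had counts of 15331, 18040, 14075, 11556 and 9626 in +/+ kidneys. In S74N/+ kidneys they were 2803, 10171, 11552, 8315 and 9452. S74N/+ replicates 1, 4 and 5 lay below every +/+ kidney, and the other 2 lay inside the +/+ range. For Fth1 the log2 fold change was −0.81 ± 0.30, or 0.569 times the +/+ level (95% interval −1.45 to −0.17, limma adjusted p = 0.111). Without replicate 1 it was −0.45 ± 0.15 (adjusted p = 0.0740 in limma), and DESeq2 on those 9 libraries gave −0.47 with an adjusted p of 0.0321.

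Ftl1, the light chain that helps the iron core form (chr7:45457944-45459884), had counts of 580, 1212, 659, 520 and 348 in +/+ kidneys. The S74N/+ kidneys gave 19.6, 376, 306, 367 and 316. All but S74N/+ replicates 2 and 4 were below the lowest +/+ kidney, and +/+ replicate 2 was far above the rest of its group. For Ftl1 it was −1.65 ± 0.62, or 0.319 times the +/+ level (95% interval −2.96 to −0.34, limma adjusted p = 0.113, exact permutation p = 0.0238). The count of 19.6 in S74N/+ replicate 1 rested on 21 reads. Without that library the log2 fold change was −0.84 ± 0.22, or 0.558 times, and it then passed the threshold in limma (adjusted p = 0.0249) and edgeR (adjusted p = 0.0181) but not in DESeq2 (adjusted p = 0.0554). Leaving out each kidney in turn gave −1.89 to −0.84.

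The ferritin differences were unequal between the title number ranges. Under 200, the difference was −1.19 for Fth1 and −2.54 for Ftl1 on the log2 scale, with 3 kidneys a group and replicate 1 among them. Without replicate 1, a comparison added after the data were seen, it was −0.54 and −1.19, with 2 S74N/+ and 3 +/+ kidneys. Over 200, with 2 a group, it was −0.25 and −0.32. Reads of both genes can be shared with pseudogenes. Of the 50-base windows at the Ftl1 3′ end, 80.9% also occurred in 15 other genes, among them Ftl1-ps1, Ftl1-ps2 and Ftl2-ps, and 12.7% of those of Fth1 occurred in 1 other gene, Gm6977. Alignment allowed several hits for a read, and whether such reads were kept when genes were counted is not given in the sources used here, so the Ftl1 counts in particular are uncertain.

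Red blood cell markers had lower sums in all 5 S74N/+ kidneys than in 4 of the 5 +/+ kidneys. Of 8 markers, 6 were in the table, and their summed count was 11910 to 28565 in +/+ and 2795 to 13809 in S74N/+ kidneys. Of these, 1 fell in limma, Slc4a1, the anion exchanger of the red cell membrane (log2 fold change −1.19 ± 0.24, adjusted p = 0.00918), and 4 fell without replicate 1, with the hemoglobin genes Hbb-bs, Hbb-bt and Hba-a1 added. Transcript length also went with genotype. In each library, the median deviation from the gene mean (log2) of 564 genes shorter than 1000 bases minus that of 4245 genes of 4000 bases or more was 0.05 to 0.29 in +/+ kidneys and −0.36 to −0.03 in S74N/+ kidneys, with no overlap. The length measure and genotype therefore cannot be told apart. The annotated Ftl1 transcript has 968 bases and the longer Fth1 transcript 1494. With each library's trend on length removed, an alternative chosen after the data were seen, the log2 fold change was −1.46 for Ftl1 and −0.69 for Fth1 (adjusted p = 0.146 and 0.152), and 0 of the 10 genes passed, beside 5.58% of the 11755 genes that had a length. The part of blood in the ferritin values was not tested.

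**Figure D2:**
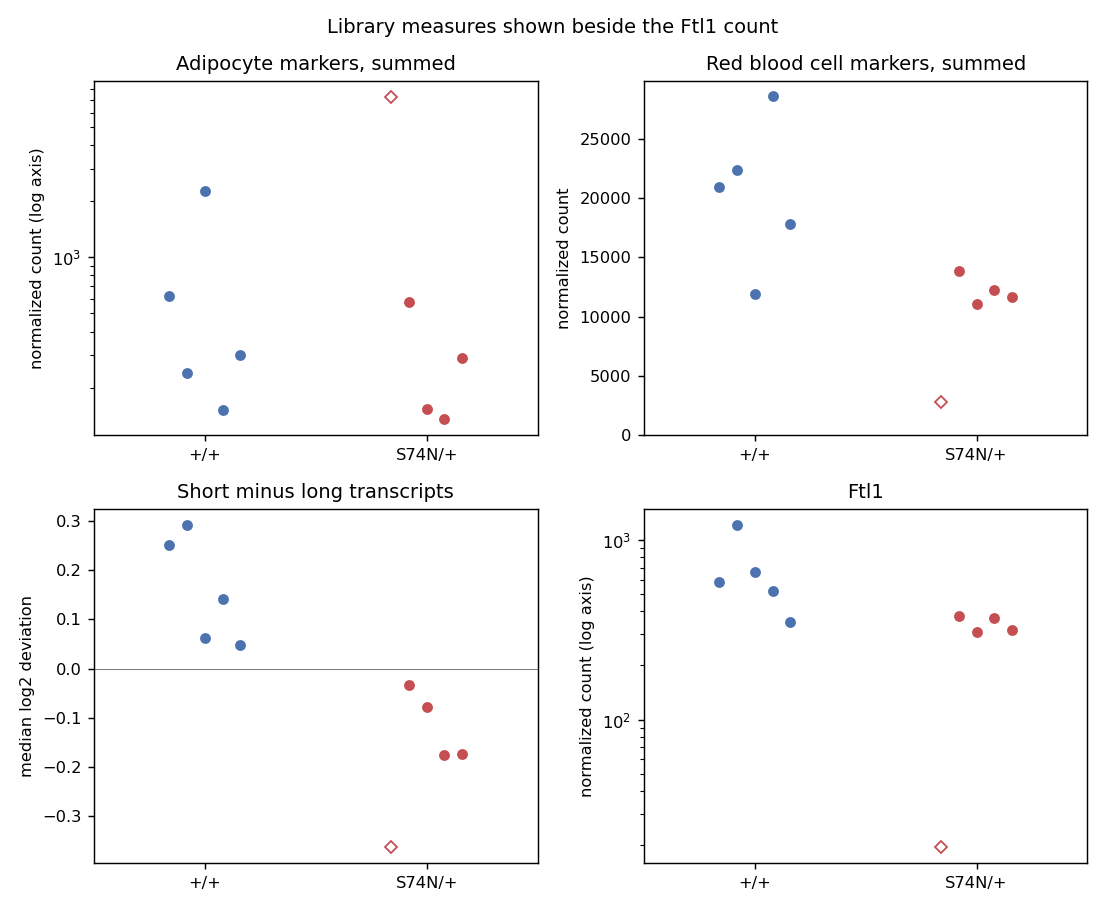
Library measures (y axes) by genotype, with +/+ in blue, S74N/+ in red and 1 point per kidney. The open diamond is S74N/+ replicate 1, which has the highest adipocyte sum (7259) and the lowest red blood cell sum (2795), length measure (−0.36) and Ftl1 count (19.6). The adipocyte and Ftl1 panels have log axes, and the length panel shows all +/+ kidneys above 0 and all S74N/+ kidneys below it.

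The ratio of Fth1 to Ftl1 within a kidney does not depend on library scaling. On the log2 scale it was 4.73, 3.90, 4.42, 4.48 and 4.79 in +/+ kidneys and 7.16, 4.76, 5.24, 4.50 and 4.90 in S74N/+ kidneys. The groups overlapped, with means of 4.46 ± 0.35 (SD, n = 5) and 5.31 ± 1.07. The difference of 0.85 had an exact permutation p of 0.0556, two-sided, and without replicate 1 it was 0.39 (exact p = 0.111). Within the title numbers over 200 the difference was 0.07. The level of this ratio is uncertain, because 80.9% of the Ftl1 and 12.7% of the Fth1 windows at the 3′ end also occurred in other genes.

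Ncoa4, the receptor for the turnover of ferritin by autophagy, had counts of 43.6, 58.3, 41.3, 36.7 and 84.6 in +/+ and 32.6, 55.2, 62.0, 63.1 and 48.6 in S74N/+ kidneys. The ranges largely coincided. The log2 fold change was 0.01 ± 0.25, with a 95% interval of −0.51 to 0.54 (limma adjusted p = 0.979). The interval leaves room for a change of either sign.

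Slc40a1 encodes ferroportin, the only known exporter of iron from mammalian cells (chr1:45908068-45926523). Its counts were 199, 147, 138, 180 and 186 in +/+ kidneys and 194, 187, 165, 305 and 303 in S74N/+ kidneys. S74N/+ replicates 4 and 5 lay above all other kidneys, and the remaining 3 lay inside the +/+ range. The log2 fold change was 0.40 ± 0.18, or 1.32-fold (95% interval 0.02 to 0.79, limma adjusted p = 0.179, exact permutation p = 0.111). The difference was 0.19 under and 0.73 over a title number of 200. Macrophages, which export much iron through ferroportin, had higher marker sums in S74N/+ kidneys. Of 15 macrophage markers 10 were in the table, and their sum was 844 to 1039 in +/+ and 1254 to 1657 in S74N/+ kidneys. Of these, 3 rose, among them C1qb (log2 fold change 0.73, adjusted p = 0.0134) and Lyz2 (0.93, adjusted p = 0.00769), and 0 fell. The macrophage sums of S74N/+ replicates 4 and 5, the kidneys with the highest Slc40a1, were 1264 and 1461. The part of macrophages in the Slc40a1 value was not tested.

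Hmox1, which frees iron from heme and is abundant in macrophages that clear red cells, had counts of 62.6, 47.9, 59.5, 86.5 and 112 in +/+ and 93.3, 85.3, 54.0, 58.1 and 97.2 in S74N/+ kidneys. The groups covered nearly the same range. Its log2 fold change was 0.09 ± 0.24 (95% interval −0.41 to 0.60, limma adjusted p = 0.843). The difference was 0.42 under and −0.39 over a title number of 200.

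**Figure D3:**
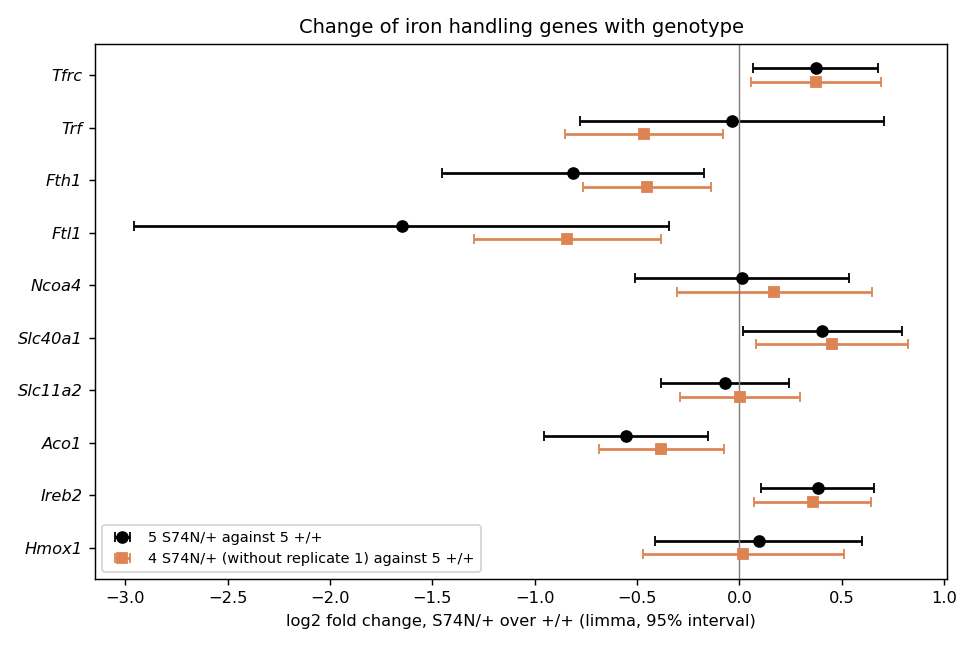
Log2 fold change of S74N/+ over +/+ (x axis) for the 10 iron genes (y axis), from limma with 95% intervals, over all 10 kidneys (black circles) and without S74N/+ replicate 1 (orange squares). The Ftl1 estimate moves from −1.65 to −0.84 and the Trf estimate from −0.04 to −0.47, while Tfrc, Slc40a1 and Ireb2 stay on the right and Fth1, Ftl1 and Aco1 on the left.

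The genes of the iron regulatory proteins had fold changes of opposite sign. Aco1, whose protein is a cytosolic aconitase when it holds an iron-sulfur cluster and binds RNA when it does not (chr4:40143081-40198338), had counts of 215, 295, 264, 198 and 208 in +/+ kidneys. The S74N/+ kidneys had 97.9, 154, 217, 186 and 164. All S74N/+ kidneys but replicate 3 were below the lowest +/+ kidney. The log2 fold change was −0.55 ± 0.19, or 0.681 times the +/+ level (95% interval −0.95 to −0.15, limma adjusted p = 0.0873, exact permutation p = 0.0317). Without S74N/+ replicate 1 it was −0.38 ± 0.15 (adjusted p = 0.121), and with equal library totals the exact p was 0.0714. Leaving out each kidney in turn gave adjusted p values of 0.0466 to 0.215, and the lowest, the only one past the threshold, came without S74N/+ replicate 3 (−0.67, beside 6.81% of all genes called).

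Ireb2, whose protein is controlled by degradation when iron is plentiful (chr9:54863789-54912530), had counts of 162, 125, 137, 139 and 146 in +/+ kidneys. The S74N/+ kidneys had 198, 161, 165, 210 and 194. Only S74N/+ replicate 2, at 161, fell below the highest +/+ kidney, at 162. The log2 fold change was 0.38 ± 0.13, or 1.30-fold (95% interval 0.11 to 0.66, limma adjusted p = 0.0857, exact permutation p = 0.0159). It was 0.30 under and 0.50 over a title number of 200. Among the alternatives run, Ireb2 passed the threshold only when libraries were scaled to equal totals (0.46, adjusted p = 0.0398, beside 7.12% of all genes called), a scaling under which the median of all genes moved from −0.01 to 0.06.

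The log2 ratio of Aco1 to Ireb2 within each kidney was 0.41, 1.24, 0.94, 0.51 and 0.51 in +/+ and −1.01, −0.06, 0.40, −0.17 and −0.24 in S74N/+ kidneys. The groups did not overlap, but the gap was small, because S74N/+ replicate 3 (0.395, with a counting SE of 0.15) lay just below +/+ replicate 1 (0.405, with a counting SE of 0.16). Means were 0.72 ± 0.36 (SD, n = 5) and −0.22 ± 0.51, so that the ratio in S74N/+ was 0.521 times that in +/+. The difference of −0.94 had an exact permutation p of 0.00794, two-sided, the smallest that 252 allocations can give, and 0.0159 after adjustment over the 2 ratios tested. That adjustment covers these ratios alone, both chosen with earlier results known, and no share over other gene pairs was computed. Among single genes, 8.16% had groups that did not overlap. It was −0.74 without replicate 1. Leaving out each kidney in turn gave −1.09 to −0.74. Each exact p was 0.0159, the smallest that 126 allocations can give. Those p values were fixed once the full groups did not overlap, so they add nothing to it. The difference was −1.09 under (−0.70 without replicate 1) and −0.72 over a title number of 200. The Aco1 transcript has 3832 bases and that of Ireb2 5770, and with the length trend removed their log2 fold changes were −0.56 and 0.30 (adjusted p = 0.0877 and 0.154). Markers of distal nephron segments also went with genotype. All 6 distal convoluted tubule markers fell, with sums of 6665 to 7747 in +/+ and 2690 to 3839 in S74N/+ kidneys, and 3 of 6 thick ascending limb markers fell, with sums of 10725 to 14771 and 5009 to 10769. The part of these segments in the values of the 10 genes was not tested.

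**Figure D4:**
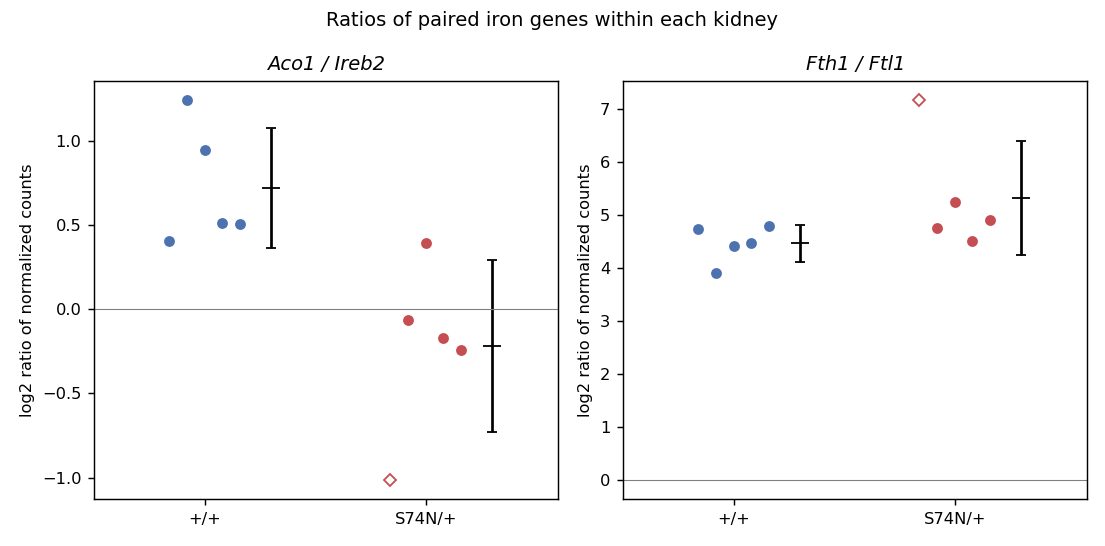
Log2 ratio of Aco1 to Ireb2 (left) and of Fth1 to Ftl1 (right) in each kidney (y axes), with +/+ in blue and S74N/+ in red. Each point is 1 mouse, the open diamond is S74N/+ replicate 1, and bars show the mean ± SD (n = 5). The Aco1 to Ireb2 groups do not overlap (lowest +/+ 0.405, highest S74N/+ 0.395), while the Fth1 to Ftl1 groups do.

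Of 96 other iron, heme and related genes tested, 9 passed the threshold in limma, 4 higher and 5 lower, beside 6.03% of all genes. With replicate 1 left out there were 11, of which 6 were higher, beside 6.80% of all genes. Cp, ceruloplasmin, the plasma ferroxidase that prepares exported iron for transferrin, rose from 176.5 ± 31.3 to 360 ± 48.8 (log2 fold change 1.03 ± 0.15, adjusted p = 0.000956), and its groups did not overlap. It was the only one of 4 chaperone and ferroxidase genes to pass. Lcn2, lipocalin-2, which binds iron through siderophores and is also a marker of tubule injury, rose from 11.3 ± 6.75 to 89.6 ± 123 (log2 fold change 2.15, adjusted p = 0.0446). Its highest count, 307, was that of S74N/+ replicate 1. The other 4 S74N/+ kidneys had 18.3 to 72.7, of which the lowest lay inside the +/+ range, and without replicate 1 the log2 fold change was 1.49 (2.82-fold in place of 4.45-fold, adjusted p = 0.0332). The other 7 of the 8 tested genes of the transferrin cycle and of plasma membrane entry did not pass.

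Among the receptors of filtered protein, Dab2, the adaptor that helps internalise megalin, fell (2185 ± 140 to 1595 ± 285, log2 fold change −0.47, adjusted p = 0.0423), and the other 3 tested did not pass. In the sensing and hepcidin control list, 2 of 14 fell. They were Id1, a target of BMP signalling (130 ± 31.1 to 62.4 ± 17.3, log2 fold change −1.07, adjusted p = 0.00879), and Egln1, an iron-dependent oxygen sensor of the HIF pathway (206 ± 69.4 to 106 ± 37.1, log2 fold change −0.97, adjusted p = 0.0485). Isca2, which helps build mitochondrial iron-sulfur clusters, fell from 95.04 ± 29.2 to 47.9 ± 9.78 (log2 fold change −0.95, adjusted p = 0.0162), alone among 21 genes of that list. Cdc42bpa, a kinase whose mRNA also carries an iron-responsive element, rose from 182.5 ± 13.4 to 242 ± 18.0 (log2 fold change 0.41, adjusted p = 0.0473), and 4 others with such an element did not pass.

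None of the 9 genes of heme uptake, breakdown and export, of the 9 of heme synthesis or of the 9 of cytosolic iron-sulfur assembly passed. The highest counts in these lists were those of the exporter Abcg2 (1649 ± 68.1 in +/+, 1964 ± 399 in S74N/+, adjusted p = 0.276) and the heme transporter Slc48a1 (1008 ± 180 and 853 ± 213, adjusted p = 0.358). Fech, which inserts iron into heme, was at 437 ± 27.2 and 431 ± 38.0 (log2 fold change −0.02 ± 0.11, adjusted p = 0.916), and Alas1, the first enzyme of the pathway, was at 408 ± 52.5 and 363 ± 73.8 (adjusted p = 0.459). In cytosolic iron-sulfur assembly, Ciapin1 was at 474 ± 63.1 and 443 ± 35.3 and Nubp1 at 149.3 ± 18.2 and 129 ± 7.86 (adjusted p = 0.680 and 0.341). Medians of these lists lay between −0.32 and −0.10, against −0.01 over all genes.

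Of 8 NRF2 targets outside iron handling, 1 rose, Txnrd1, thioredoxin reductase (858 ± 114 to 1320 ± 192, log2 fold change 0.62, adjusted p = 0.00920). Of 7 genes of lipid peroxidation defense, 1 fell, Slc3a2, the heavy chain shared by several amino acid transporters (727 ± 221 to 231 ± 100.04, log2 fold change −1.81, adjusted p = 0.00992). The groups did not overlap for either gene. Slc3a2 was lowest, at 55.0, in S74N/+ replicate 1, and its log2 fold change without that library was −1.35.

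**Figure D5:**
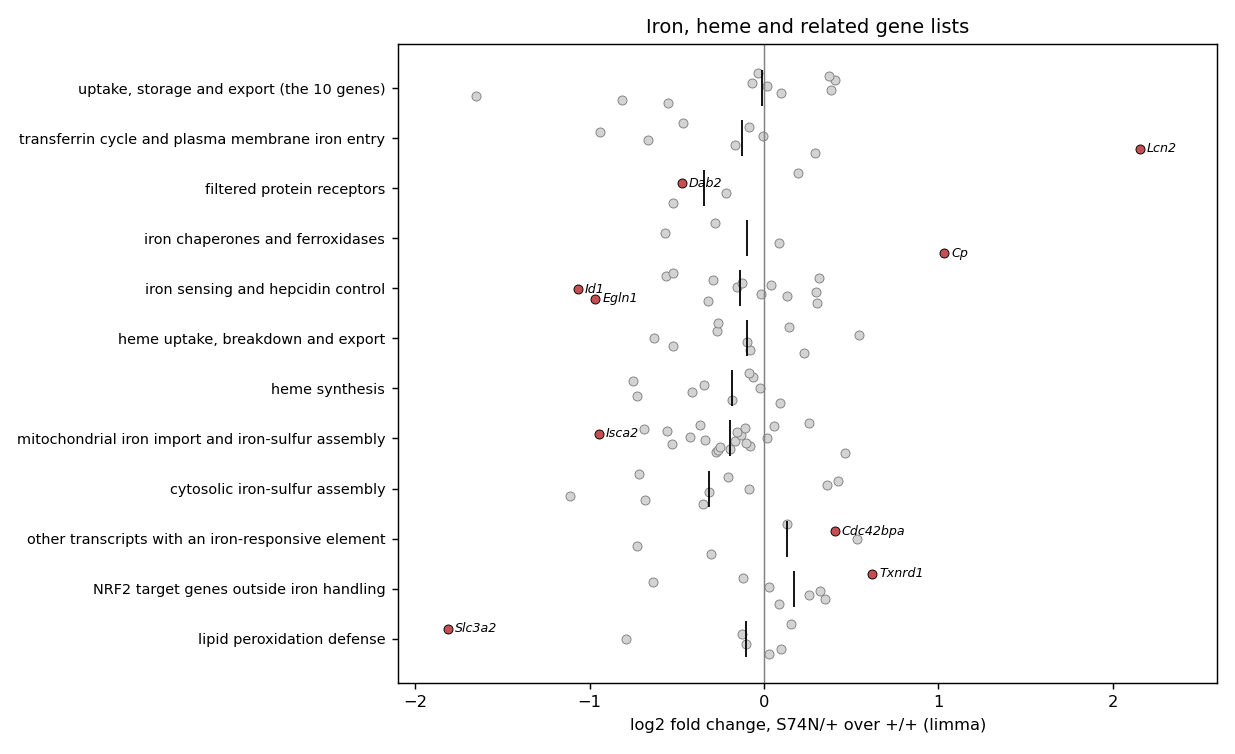
Log2 fold change of S74N/+ over +/+ (x axis, limma) of each tested gene in the iron, heme and related lists (y axis). Red points with names passed an adjusted p of 0.05, grey points did not, and the vertical tick marks the median of each list. None of the 10 uptake, storage and export genes is red, and 9 of the 96 genes of the other lists are, beside 6.03% of all tested genes.

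Promoters of 6 of the 10 genes (Tfrc, Fth1, Ftl1, Ncoa4, Aco1 and Ireb2) were in the RefSeq table, from 250 bases before to 50 after the start (GRCm38). On both strands, CACGTG, the core of the E-box bound by TFEB family factors, was in the windows of 0 of the 6 and in 7.15% of 32851 windows overall. TCACGTGA, which contains it, was likewise in 0 and in 0.974% overall. TGACNNNGC, the core of the antioxidant response element, was in 12.4% of windows and in 1 of the 6 genes, Ncoa4. A gene was counted when any of its windows matched, so gene counts and shares of windows are not fully alike. The motif was in 1 of the 3 Ncoa4 windows, 44 bases before the start in that window, and is printed with the match in capitals.
Ncoa4 promoter: gcggggcgTGACCTGGCcggtaggg
The loop letters CAGTGN, by contrast, were in 55.8% of windows, Tfrc and Ftl1 among them, so the letters of the loop alone are common.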

How the data were processed

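RNA from whole kidneys was made into 3′ end libraries from 300 ng of total RNA per the labels. The authors checked reads with FastQC 0.11.7, aligned them to GRCm39 with TopHat2 2.0.10, Bowtie 1.0.0 and SAMtools 0.1.19, and tallied them by gene with HTSeq 0.6.1 in its stranded mode on a GENCODE annotation. The deposited values are a signal, normalized counts, for which the authors scaled each library's counts by its own size factor. In all 10 columns every value was a whole multiple of 1 step within 1e-06, so reads were recovered. For +/+ replicate 5 and S74N/+ replicate 3 the step was close to 1, so recovery is less certain there.

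Genes with 5 or more normalized counts in 5 or more libraries were fitted with limma 3.58.1 (R 4.3.3) on log2(normalized count + 1) with a variance trend and Benjamini-Hochberg adjustment over 13236 genes at 0.05. Fold changes are on that scale, which understates changes of low genes. edgeR 4.0.16 (quasi-likelihood) and DESeq2 1.42.0 on recovered reads were alternatives. Exact permutation tests (scipy 1.17.1) were two-sided. The fits were tested on simulated data with 200 changed genes. At a simulated log2 fold change of 2 in either direction, limma called 92% of such genes, edgeR 94% and DESeq2 93%. At 1 they called 60%, 58% and 63%. Smaller changes, such as those of most of the 10 genes, were not simulated. The paper gives 5 mice of each genotype for its old kidney comparison. Nothing in the labels says how the 5 samples of a group were obtained beyond separate titles, so p-values measure the spread between these samples. Replicates were numbered by accession order. The genes and lists were chosen with earlier results of these data known. All 10 genes are named, with, from each other list, those past the threshold (up to 3 each way) or otherwise the 2 with the highest mean, and up to 3 markers a list by highest mean. Slc4a1, C1qb, Lyz2, Hbb-bs, Hbb-bt and Hba-a1 were named after their values were seen, and a few genes of the lists are not reported here. Coordinates and hairpins come from GRCm38 and were not combined with the authors' GRCm39. Intervals cover sampling between libraries, and the counting SE of a ratio covers counting error only.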

Additional observations from a re-analysis of the deposited data

Results flagged for a closer look

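Of 24 groups of 5 kidneys tested for a single distant value (Dixon's test, critical value 0.71), 3 had one, where chance gives about 1.2. All 3 came from S74N/+ replicate 1. Its Trf count of 328 lay far above the other 4 S74N/+ kidneys (66.1 to 79.4), and its Ftl1 count of 19.6 far below them (306 to 376). Its log2 ratio of Fth1 to Ftl1, 7.16, was far above the rest of the group, and rests on the same Ftl1 count. The same library had the highest adipocyte marker sum (7259) and the lowest red blood cell sum (2795). The part of either in these values was not tested.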

How the results depend on the processing

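The groups are separate mice of different genotype and the labels name no pairs, so no paired analysis was run. Of the 10 genes, 1 passed with equal library totals (Ireb2), and 0 to 1 when each library was left out in turn (Ftl1 without S74N/+ replicate 1, Aco1 without S74N/+ replicate 3). Count models on 9 libraries without S74N/+ replicate 1, chosen after seeing the data, called 1 each (Ftl1 in edgeR, Fth1 in DESeq2). Pseudocounts of 0.5 and 5, no filter, a mean count of at least 50, equal 75th percentiles, eBayes without the trend or robust, a block for the title number range and removal of the length trend (chosen after seeing the data) left 0 of the 10 past the threshold. Exact permutation p under 0.05 was met by 5 of the 10 genes, beside 23.5% of all genes, and by 3 to 5 with a library left out. After adjustment over all genes none of the 10 passed (0.126 or higher).

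All-gene calls (798) were 391 without the variance trend, 1354 in DESeq2, 187 at an adjusted p under 0.01 and 311 to 902 with a library left out. The split moved from 457 higher and 341 lower to 718 and 225 with equal library totals, where the median of all genes was 0.06. Other iron genes called (9) were 4 without the trend, 4 at 0.01, and 5 to 11 with a library left out. In the same settings the all-gene calls were 391, 187 and 311 to 902. The median log2 fold change of the 10 genes stayed within −0.059 to 0.073 with a library left out, and the Aco1 to Ireb2 difference within −1.09 to −0.74. That of Fth1 to Ftl1 was 0.39 to 1.06 (exact p 0.0317 to 0.111), and it passed without +/+ replicate 5 (0.93) or S74N/+ replicate 4 (1.06).

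Among the 10 genes, signs turned for Trf, Ncoa4, Slc11a2 and Hmox1. Trf was 0.041 with equal totals, 0.0039 with equal totals of nuclear genes, 0.27 in edgeR, 0.25 in DESeq2, 0.013 with the length trend removed and −0.47 to 0.11 with a library left out. Ncoa4 was −0.0069 in edgeR, −0.015 in DESeq2, −0.0030 with the length trend removed and −0.10 to 0.20 with a library left out. Slc11a2 was 0.0080 with equal totals, 0.027 in edgeR and 0.024 in DESeq2 on 9 libraries and −0.19 to 0.0027 with a library left out. Hmox1 was −0.00027 and −0.0032 in those count models and −0.043 to 0.26 with a library left out.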
